A study of Bos taurus with 33 samples.

Results

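Kinesins are motor proteins that use ATP to move along microtubules or to take them apart. In dividing cells they build the spindle, move chromosomes and complete cytokinesis, and in other cells they carry vesicles, organelles and RNA or serve the cilium. An oocyte entering its meiotic divisions assembles its spindle without centrioles, whereas cumulus cells (CC), which surround the oocyte and feed it through gap junctions, are known to leave the cell cycle as they expand before ovulation.

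The kinesins were taken as every gene whose symbol starts with KIF or KIFC followed by a digit, which gave 40 of the 17543 genes in the oocyte or the CC table. All 40 had a row in the oocyte table and 37 in the CC table. By known role, 14 act in the spindle and cytokinesis, 14 in cargo transport, 8 in cilia and axonemes, and 4 in other or less settled ways. The rule admitted KIF1BP, a kinesin-binding protein that is not itself a motor, and left out CENPE, a kinesin of the kinetochore whose symbol does not start with KIF. KIF20B had no symbol in the CC table and was joined by its Ensembl identifier.

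RNA had been sequenced from pools of 4 oocytes, or of the CC of 4 complexes, from suckled postpartum beef cows whose follicles had been synchronized with GnRH and prostaglandin F2 alpha. Cows without estrus received a second GnRH injection, which induced the gonadotropin surge in the small (follicle up to 11.7 mm) and large (12.7 mm or more) classifications. Cows that showed estrus had their own surge and formed the spontaneous classification (11.7 to 14 mm), so the source of the surge and the expression of estrus separate it from both induced classifications together. There were 6 small, 6 large and 4 spontaneous oocyte pools and 6, 6 and 5 CC pools, collected about 23 h after injection or estrus by the protocol and about 20 h by the sample characteristics. A pool mixes complexes of 4 follicles and is 1 replicate. By design a CC pool came from the same complexes as an oocyte pool, so the pools of both cell types are not independent. The authors removed 1 oocyte pool for its low cDNA.

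The deposited values were counts per 1000000 reads on genes (CPM), from 7664375 to 17934916 reads in oocyte pools and from 1911600 to 5772431 in CC pools. A value of 0 still allows 3 reads, worth 0.167 to 0.391 CPM in an oocyte library and 0.52 to 1.57 CPM in a CC library, for counting error only. Summed oocyte markers, GDF9 and the zona pellucida genes among them, stood at 9143 to 13179 CPM in oocytes, over 12 genes. In CC they stood at 0 to 7.83 CPM, over only the 5 with a symbol in the CC table, without DAZL. These sums are thus over different genes. Summed cumulus and granulosa markers stood at 12453 to 34254 CPM in CC and at 806 to 4455 CPM in oocytes. In CC, theca and stroma markers summed to 267 to 1326 CPM, white blood cell markers to 14.8 to 104, endothelial markers to 7.38 to 68.9 and red blood cell markers to 0 to 4.18 CPM. Replicate 3 of the small classification stood apart in both cell types. In CC it had the fewest reads, the largest mitochondrially encoded share (42.9% of CPM, against 12.4 to 30.9% in the other CC pools) and the highest summed proliferation markers (1240 CPM, against 281 to 872). In oocytes it had the fewest reads, and its mitochondrially encoded share was 4.92%, against 0.827 to 2.63%.

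The first question was how the kinesins divide between the oocyte and its cumulus. Summed over the family, kinesin transcripts took 7115 ± 454 CPM in oocyte pools (SD, n = 16) and 1484 ± 137 CPM in CC pools (SD, n = 17). Spindle kinesins made up 4816 ± 351 CPM of the oocyte sum and 461 ± 87.7 CPM of the CC sum. Cargo kinesins stood closer together, at 974 ± 83.4 CPM in oocyte and 763.7 ± 70.01 CPM in CC pools, and ciliary kinesins at 1289 ± 155 and 219.1 ± 44.97 CPM. CPM does not correct for transcript length, so these sums are shares of reads, and levels of different genes are not ranked here. The oocyte and CC tables had been scaled separately, so their values are set side by side without a test. As these are bulk pools, less RNA per cell and fewer cells of a type cannot be told apart.

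Of the 37 kinesins in both tables, 35 reached the filter on low values (5 CPM or more in 4 or more of the oocyte pools, or in 5 or more of the CC pools) in 1 table or both. In 18 of the 35 (51.4%) every oocyte pool lay above every CC pool, against 22.9% of all 11431 transcripts joined in this way. In 1, KIF21A (2.86%), every CC pool lay above every oocyte pool, against 13.4% of all transcripts, and in 16 the pools overlapped. The count of 1 became 3 in CPM recomputed without mitochondrially encoded genes, which took 20.9% of CC and 1.62% of oocyte CPM on average, and 2 without large replicate 2 or spontaneous replicate 2 of the oocyte pools or small replicate 3 or 5 of the CC pools. With those genes removed, 16 kinesins in place of 18 were separated upward in the oocyte. The shares of all transcripts were not counted on that scale, so 16 and 3 have no background beside them. The median log2 ratio of mean CPM + 1, oocyte to CC, was 2.56 over the 35 kinesins and 0.26 over all transcripts. Within each follicle classification the division was similar. In small pools 19 of 35 kinesins were separated upward in the oocyte (29.5% of all transcripts) and 4 upward in CC (22.5%). In large pools the counts were 22 (31.2%) and 3 (23.5%), and in spontaneous pools 22 (33.6%) and 5 (30.1%).

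**Figure D1:**
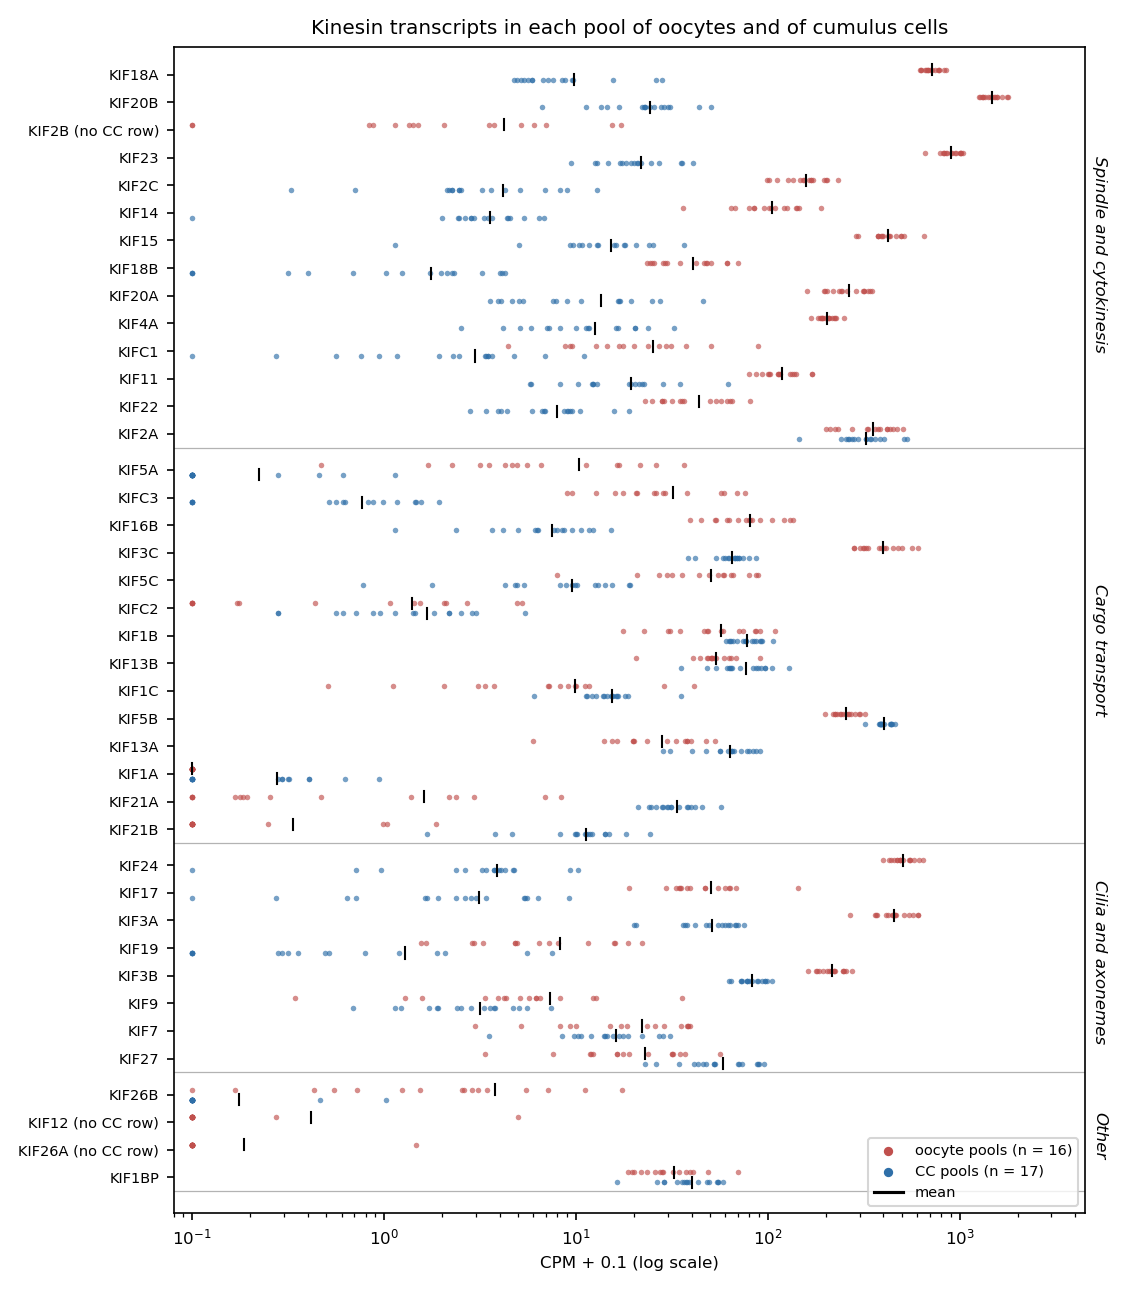
Level of each of the 40 kinesins in every oocyte pool (red) and CC pool (blue), as CPM + 0.1 on a logarithmic axis, grouped by role, with the mean of each cell type as a black tick. Spindle kinesins form clusters of red points to the right of the blue ones except for KIF2A and KIFC1, which overlap, while cargo kinesins such as KIF5B, KIF13A and KIF21A lie further right in CC; KIF12, KIF2B and KIF26A had no CC row.

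Spindle kinesins held most of this separation. Of 13 in both tables, 11 had every oocyte pool above every CC pool (84.6%, against 22.9% of all transcripts). The count stayed at 11 with any 1 pool left out. It fell to as low as 9 under the 2 alternatives, CPM without mitochondrially encoded genes and thinned reads. The median ratio of mean CPM + 1 was 18.3-fold, against 1.19-fold over all transcripts. KIF20B, which acts in cytokinesis, ranged from 1262 to 1777 CPM in oocyte pools (mean 1467) and from 6.53 to 50.2 CPM in CC pools (mean 24.3), a ratio of means of 60.4. KIF18A, which shortens microtubule plus ends and helps to align chromosomes, ranged from 621 to 845 CPM in oocyte and from 4.63 to 28.1 CPM in CC pools, a ratio of 73.9. For both genes the oocyte and CC ranges were far apart.

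The motors of the spindle midzone and of cytokinesis showed the same separation. KIF23, the motor subunit of centralspindlin, averaged 900 ± 106 CPM in oocyte and 21.6 ± 8.69 CPM in CC pools. KIF20A, which brings the chromosomal passenger complex to the midzone, averaged 263 ± 59.7 and 13.4 ± 11.3 CPM. KIF4A, a midzone chromokinesin, averaged 203 ± 20.5 and 12.5 ± 8.03 CPM, and KIF14, a partner of citron kinase, 105 ± 37.7 and 3.46 ± 1.64 CPM.

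Motors that set up the bipolar spindle were also higher in the oocyte, with smaller ratios for some. KIF11, the plus-end motor that pushes spindle poles apart, averaged 119 ± 26.7 CPM in oocyte and 19.2 ± 13.5 CPM in CC pools, a ratio of 6.17. KIF15, which can stand in for KIF11, averaged 424 ± 87.8 and 15.1 ± 8.36 CPM, a ratio of 28.1. KIFC1, a minus-end motor that focuses spindle poles, averaged 24.99 ± 20.8 and 2.87 ± 2.74 CPM, and its pools overlapped. KIF22, a chromokinesin, averaged 43.8 ± 17.7 and 7.88 ± 4.30 CPM, with no overlap.

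The microtubule depolymerases of the kinesin-13 group differed among themselves. KIF2C, which works at centromeres, averaged 158 ± 38.1 CPM in oocyte and 4.05 ± 3.32 CPM in CC pools. KIF2A, which works at spindle poles and also outside mitosis, averaged 351 ± 98.5 and 325.7 ± 95.04 CPM, a ratio of 1.08, with overlapping pools. It was the spindle kinesin with the highest share of CC reads, at 146 to 527 CPM. KIF2B ranged from 0 to 17.1 CPM in oocyte pools and had no row in the CC table.

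**Figure D2:**
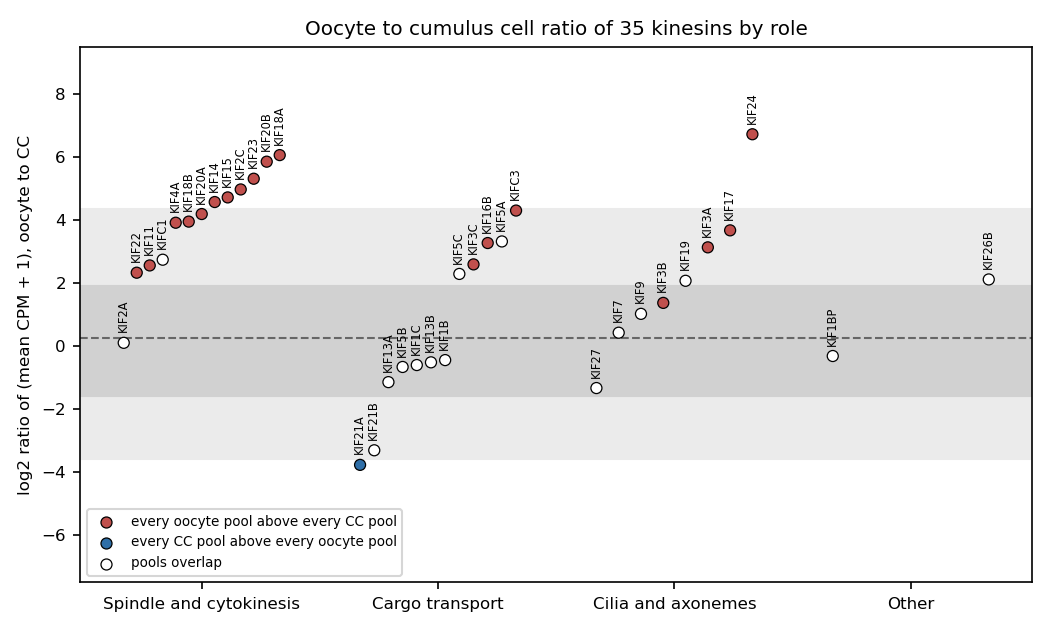
Log2 ratio of mean CPM + 1, oocyte to CC, for the 35 kinesins that passed the filter in either table, by role. Red points had every oocyte pool above every CC pool, the blue point (KIF21A) the opposite, and open points overlapped; the dashed line is the median of all 11431 transcripts (0.26) and the dark and light bands hold the central 50 and 90% of them.

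Among cilia and axoneme kinesins, KIF24 had the largest ratio of all 35 retained members. KIF24, which restrains the outgrowth of cilia at the mother centriole, ranged from 396 to 642 CPM in oocyte pools and from 0 to 10.1 CPM in CC pools, a ratio of 134. KIF3A and KIF3B, the paired motors of heterotrimeric kinesin-2 in intraflagellar transport, averaged 456 ± 93.4 and 216 ± 31.8 CPM in oocyte pools. In CC pools KIF3A averaged 50.9 ± 16.7 and KIF3B 82.6 ± 12.5 CPM, and neither gene overlapped between cell types. KIF17, the homodimeric kinesin-2 motor, was separated in the same direction (50.5 ± 28.3 and 3.02 ± 2.49 CPM). In all, 4 of 8 ciliary kinesins were (50%, against 22.9% of all transcripts). KIF27, which is tied to motile cilia, went the other way in its means, with 22.7 ± 13.7 CPM in oocyte and 58.4 ± 23.0 CPM in CC pools and overlapping values. KIF7, a regulator of Hedgehog signalling at the ciliary tip, averaged 22.0 ± 13.0 and 16.1 ± 7.44 CPM. KIF19 and KIF9 were low and overlapping.

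Cargo kinesins were separated about as often as transcripts in general. Of 12 compared, 3 had every oocyte pool above every CC pool (25%, against 22.9% of all transcripts), KIF21A the reverse (8.33%, against 13.4%), and 8 overlapped, and the median log2 ratio was -0.48. KIF3C (395 ± 99.8 CPM in oocyte, 64.5 ± 12.1 in CC), KIF16B, an endosomal motor (80.3 ± 29.5 and 7.39 ± 3.71), and KIFC3, a minus-end motor (32.0 ± 21.4 and 0.67 ± 0.589), were the 3 higher in oocytes. KIF21A, a kinesin-4 motor that curbs microtubule growth, ranged from 20.9 to 56.8 CPM in CC pools and from 0 to 8.27 CPM in oocyte pools, with no read in 4 of the 16, a ratio of 0.0456. The highest oocyte values of KIF21A were in spontaneous replicate 3 (8.27 CPM) and small replicate 3 (6.78 CPM), whose summed cumulus markers were 3073 and 4455 CPM. The part of CC-type RNA in these 2 values was not tested. Its paralog KIF21B was at 1.57 to 24.3 CPM in CC pools and had no read in 12 of 16 oocyte pools, a ratio of 0.0209 from 49 oocyte reads in all. A single CC pool, small replicate 3 (1.57 CPM), overlapped with the oocyte range of KIF21B.

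The 3 heavy chains of conventional kinesin showed 3 different patterns. KIF5B, the widely expressed chain, was at 403 ± 34.1 CPM in CC and 255 ± 34.2 CPM in oocyte pools, and the ranges touched (319 to 457 and 198 to 320 CPM). KIF5C, known from neurons, averaged 50.2 ± 23.9 CPM in oocyte and 9.43 ± 5.52 CPM in CC pools, with overlap. KIF5A, also known from neurons, averaged 10.3 ± 10.4 CPM in oocyte pools and had no read in 13 of 17 CC pools, so that its ratio of 83.4 rests on 9 CC reads in all. The kinesin-3 motors KIF1B (57.0 ± 27.1 and 77.8 ± 13.1 CPM), KIF1C (9.79 ± 10.7 and 15.3 ± 5.87 CPM), KIF13A (28.1 ± 13.3 and 63.1 ± 18.4 CPM) and KIF13B (53.4 ± 14.8 and 76.6 ± 23.6 CPM) all had higher means in CC and overlapping pools.

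Of the remaining members, KIF26B, an atypical kinesin without motor activity, ranged from 0 to 17.2 CPM in oocyte pools and had reads in only 2 of 17 CC pools, 5 reads in all. Its ratio of means was 48.6. KIF1BP averaged 32.1 ± 13.2 CPM in oocyte and 40.1 ± 11.8 CPM in CC pools. The kinesins separated upward in the oocyte stood in CC pools at 0.747% of their oocyte mean (KIF24) or more. The 7 oocyte markers with a CC row stood at 0.0028 to 0.506%, with DAZL the highest. The part of oocyte RNA in the CC values of kinesins was not tested.

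Genes that work with kinesins were counted in the same way. The lists are not fully separate from the family, as CENPE stood among the spindle partners and KIF1BP among the light chains and adaptors. Of 21 spindle partners, 18 (85.7%, against 22.9% of all transcripts) had every oocyte pool above every CC pool, among them AURKA (5205 and 14.1 CPM) and TPX2 (617 and 40.3 CPM), which load and activate spindle proteins. Of 15 proliferation markers, 12 did (80%). Of 25 rows of cytoplasmic dynein and dynactin, the minus-end transport complex, 7 were higher in oocyte (28%) and 5 in CC pools (20.0%, against 13.4% of all transcripts), shares near those of all transcripts. Of 9 kinesin light chains and adaptors, 1 was higher in oocyte (11.1%) and 2 in CC pools (22.2%). KLC1, the light chain that links KIF5 motors to cargo, averaged 48.2 CPM in CC pools and 6.59 CPM in oocyte pools.

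Spread between pools of one classification was described by role, without a test between roles. As a median coefficient of variation within classifications, spindle kinesins varied by 24.1% in oocyte pools, cargo kinesins by 50.1% and ciliary kinesins by 59.3%, against 45.7% over all 10076 retained transcripts. In CC pools the 10 retained spindle kinesins varied by 62.6%, cargo kinesins by 29.2% and ciliary kinesins by 36.5%, against 33.6% over all 9712 transcripts. The lowest value of a kinesin was 9.92% in oocyte pools (KIF18A) and 8.11% in CC pools (KIF5B, which was also the lowest of all CC transcripts). Spindle kinesins were of low abundance in CC pools, and the part of counting error in their spread was not tested. In oocyte pools the roles overlapped. KIF3B (10.5%), KIF5B (12.8%) and KIF24 (14.3%) varied little, and the low spindle kinesins KIFC1 (87.1%) and KIF2B (128.7%) varied much. The part of abundance in the oocyte medians was not tested either.

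The second question was whether kinesins differ between follicle classifications. They were tested within each cell type with limma on log2(CPM + 1), fitted across all retained transcripts, and a log2 fold change is the second-named classification minus the first. A transcript was called at a nominal p of 0.01 or less. Of 34 kinesins retained in oocyte pools, 0 were called between small and large follicles (0.655% of all 10076 transcripts were). Between small and spontaneous 1 was called (0.774%), and between large and spontaneous 1 (0.943%). The latter was KIF26B, which passed the filter only through the large pools where it was high, so its call only describes these pools. KIF26B is also in the counts at a p under 0.05 below, in both comparisons with large oocyte pools. Of 26 retained in CC pools, 0 were called between small and large (0.813% of 9712), 1 between small and spontaneous (2.38%) and 1 between large and spontaneous (1.66%). No kinesin had a Benjamini-Hochberg adjusted p under 0.05 in limma, edgeR or DESeq2. In limma such a p was reached by 0.0309% of all CC transcripts from small to spontaneous, by 0.0103% from large to spontaneous and by 0 in the other comparisons. Where limma called 0 kinesins, edgeR's 2 tests and DESeq2 also called 0, and at an unadjusted p under 0.05 limma gave 2 of 34 in oocytes (4.11% of all) and 1 of 26 in CC (4.0%). In the other comparisons it gave 2 of 34 from small to spontaneous (4.51%) and 3 of 34 from large to spontaneous oocytes (4.87%), and 2 of 26 (8.55%) and 3 of 26 (7.07%) in the same comparisons in CC. The median log2 fold change over the retained kinesins lay between -0.06 and 0.14, and over all transcripts between 0.01 and 0.16. With median-of-ratios scaling it turned from 0.14 to -0.01 from small to spontaneous and from 0.08 to -0.01 from large to spontaneous CC pools, and from 0.01 to -0.03 from small to spontaneous oocyte pools.

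**Figure D3:**
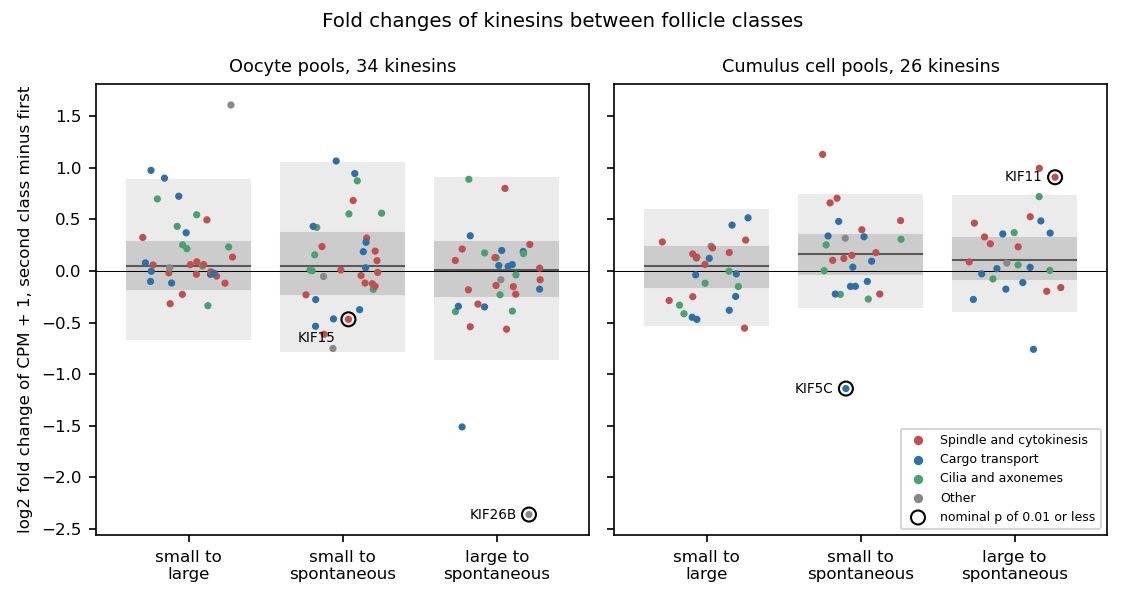
Log2 fold change of CPM + 1 of each retained kinesin (points, coloured by role) in the 6 comparisons of follicle classifications, the second classification minus the first. Grey boxes hold the central 50 and 90% of all retained transcripts with their median as a line; the ringed points KIF15, KIF26B, KIF5C and KIF11 had a nominal p of 0.01 or less, and the other kinesins lie mostly within the boxes.

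In oocytes the called spindle kinesin was KIF15 (ENSBTAG00000016726). Its small pools had a lowest value of 421, a median of 481 and a highest of 649 CPM, and the spontaneous pools held 374, 389, 289 and 373 CPM. Every small pool was above every spontaneous pool, and the large pools, from 295 to 496 CPM, spanned both. KIF15 averaged 495 ± 82.9 CPM in small (SD, n = 6) and 356 ± 45.6 CPM in spontaneous pools (SD, n = 4), a log2 fold change of -0.47 ± 0.16 (SE) with a nominal p of 0.00798 and an adjusted p of 0.987 in limma. An exact two-sided permutation test of the mean CPM gave p = 0.00952, the smallest that 6 against 4 pools allow. Between small and large pools the fold change was -0.32 (limma, nominal p = 0.0326, adjusted p = 0.997, exact permutation p = 0.0411). The call was lost when small replicate 2, 4 or 5 or spontaneous replicate 1, 3 or 4 was left out, with log2 fold changes of -0.49 to -0.37, and in edgeR's likelihood ratio test.

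KIF26B (ENSBTAG00000012715) had the smallest p in both comparisons with large oocyte pools. The large pools held a lowest value of 2.45, a median of 6.24 and a highest of 17.2 CPM, the spontaneous pools 0.332, 0.0675, 1.14 and 0.446 CPM, and the small pools a median of 1.97 CPM with 1 pool at 0. Large and spontaneous pools did not overlap. The log2 fold change of KIF26B from large to spontaneous was -2.36 ± 0.72 (limma, nominal p = 0.00282, adjusted p = 0.925, exact permutation p = 0.00952). That from small to large was 1.61 ± 0.64 (limma, nominal p = 0.0176, adjusted p = 0.997, exact permutation p = 0.0108). KIF26B reached 5 CPM in 4 pools, all of them large, so it entered the test only through the classification where it was high, and its call is a description of these pools. Without large replicate 2, 3, 4 or 6 it fell below the filter and was not tested.

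KIF3B also had large oocyte pools (220 to 273 CPM) entirely above the spontaneous pools (162 to 203 CPM), with a log2 fold change of -0.39 ± 0.17 (limma, nominal p = 0.0264, adjusted p = 0.968, exact permutation p = 0.00952). KIF20B, KIF18A and KIF24, which had 3 of the 5 largest oocyte to CC ratios, were not called between classifications. KIF20B averaged 1475 ± 170 CPM in small, 1536 ± 164 CPM in large and 1351 ± 119 CPM in spontaneous oocyte pools, and its log2 fold changes were 0.06 ± 0.10, -0.12 ± 0.12 and -0.18 ± 0.11 (SE), none past the threshold. KIF18A averaged 733 ± 82.7, 716 ± 65.4 and 674 ± 55.6 CPM, and KIF24 503 ± 102, 514 ± 51.2 and 499 ± 33.3 CPM.

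**Figure D4:**
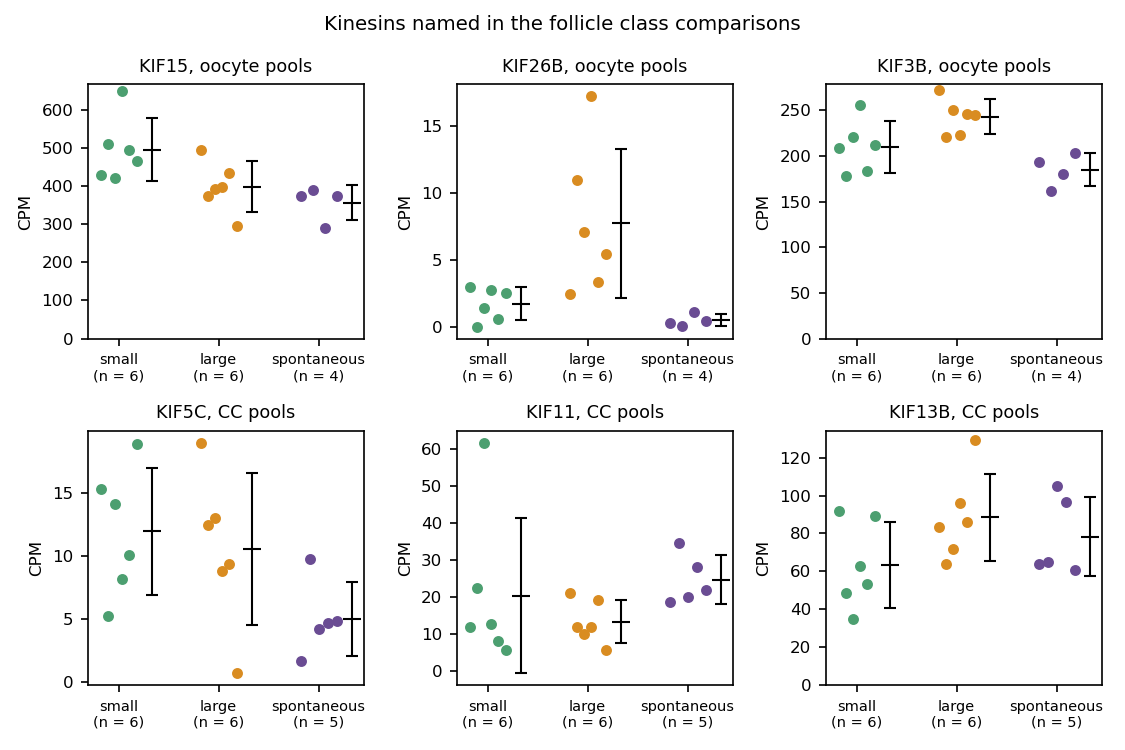
CPM of KIF15, KIF26B and KIF3B in oocyte pools and of KIF5C, KIF11 and KIF13B in CC pools, by follicle classification. Points are pools and bars the mean ± SD; KIF15 small, and KIF26B and KIF3B large pools lie above all spontaneous pools, and in the CC panels the classifications overlap.

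In CC the called cargo kinesin was KIF5C (ENSBTAG00000018125). Small pools held a lowest value of 5.23, a median of 12.1 and a highest of 18.9 CPM, and spontaneous pools 1.67, 9.75, 4.18, 4.72 and 4.85 CPM. The groups overlapped through the highest spontaneous pool and the lower small pools, and the large pools ran from 0.677 to 19.0 CPM. KIF5C averaged 11.97 ± 5.04 CPM in small (SD, n = 6) and 5.03 ± 2.93 CPM in spontaneous pools (SD, n = 5), a log2 fold change of -1.14 ± 0.39 (limma, nominal p = 0.00922, adjusted p = 0.418, exact permutation p = 0.026). The call was lost when small replicate 1, 3, 5 or 6 or spontaneous replicate 1, 3, 4 or 5 was left out, with log2 fold changes of -1.16 to -0.88, and with a pseudocount of 0.1, with no filter and with all 3 classifications in 1 fit.

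KIF11 (ENSBTAG00000009383) was the CC kinesin called between large and spontaneous follicles. Large pools held a lowest value of 5.64, a median of 12.1 and a highest of 21.1 CPM, and spontaneous pools 18.8, 34.5, 20.1, 28.1 and 22.0 CPM. All spontaneous pools but 2 were above the highest large pool. KIF11 averaged 13.4 ± 5.80 CPM in large (SD, n = 6) and 24.7 ± 6.53 CPM in spontaneous pools (SD, n = 5), a log2 fold change of 0.91 ± 0.31 (limma, nominal p = 0.00845, adjusted p = 0.567, exact permutation p = 0.0216). The call was lost when large replicate 2, 3, 4 or 6 or spontaneous replicate 2, 3, 4 or 5 was left out (0.71 to 0.97), in the 3 count tests (0.80 in each, adjusted p = 0.545 to 0.766 in edgeR and DESeq2) and in CPM recomputed without mitochondrially encoded genes (0.86, adjusted p = 0.68 in limma). No filter, median-of-ratios scaling and all 3 classifications in 1 fit ended it too. The mitochondrially encoded share averaged 20.1 ± 5.13% of CPM in large and 16.7 ± 3.35% in spontaneous CC pools.

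In the remaining CC comparison, small against large, the smallest p belonged to KIF13B, a kinesin-3 motor. KIF13B averaged 63.4 ± 22.8 CPM in small and 88.5 ± 23.0 CPM in large pools, with overlapping values and a log2 fold change of 0.52 ± 0.24 (limma, nominal p = 0.0477, adjusted p = 0.999, exact permutation p = 0.0866).

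Several CC spindle kinesins had their highest value in small replicate 3. It held the highest value of KIF11 (61.7 CPM, against 5.72 to 22.5 in the other small pools), KIF15, KIF20B, KIF23 and KIF4A among all 17 CC pools. Between small and spontaneous pools KIF11 had a log2 fold change of 0.66 with all pools (limma, adjusted p = 0.724, exact permutation p = 0.732) and 1.06 without small replicate 3 (limma, adjusted p = 0.275), where it passed the nominal threshold. With all pools its sign turned in 2 count tests, to -0.05 in edgeR's likelihood ratio test and -0.07 in DESeq2. KIF20A went from 1.13 (limma, adjusted p = 0.572, exact permutation p = 0.169) to 1.47 (limma, adjusted p = 0.299), and passed too. Without that pool the CC count between small and spontaneous was 2 of 25, KIF11 and KIF20A, and no longer KIF5C. In that run 269 of all 9677 transcripts were called.

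**Figure D5:**
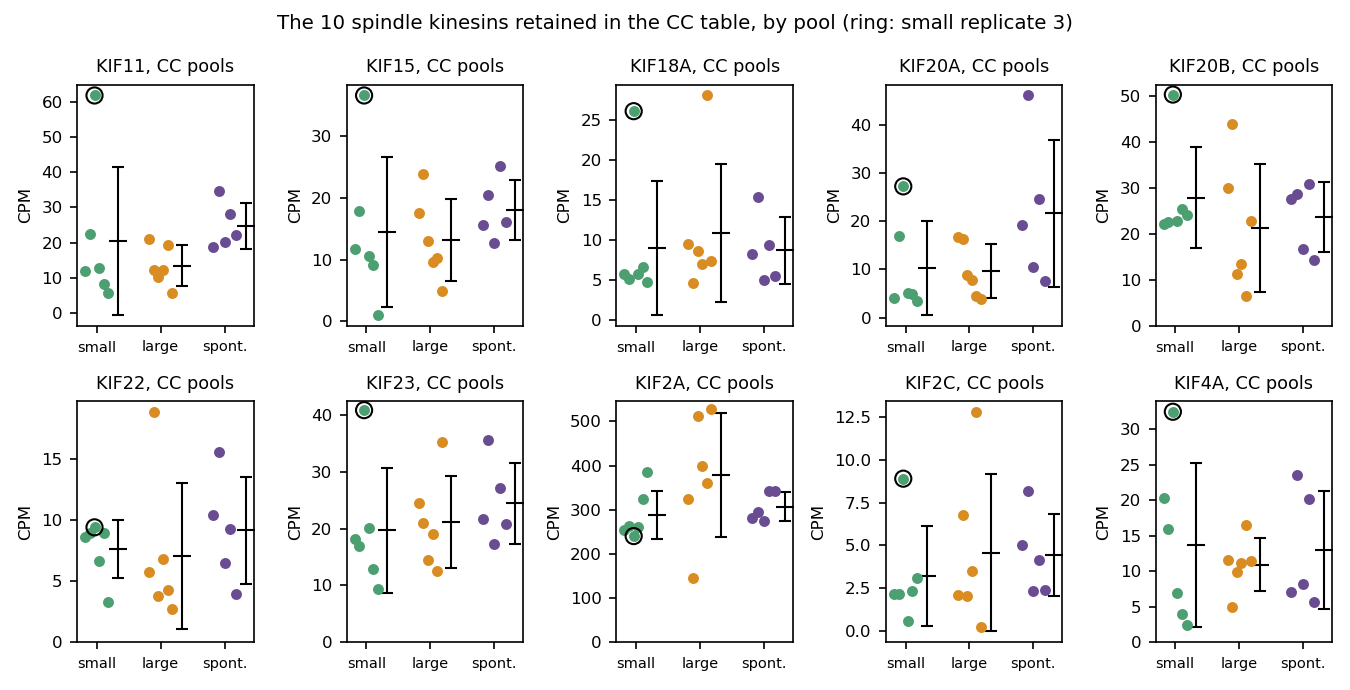
CPM of the 10 spindle kinesins retained in CC pools by follicle classification, with points for pools, bars for mean ± SD and a ring around small replicate 3. The ringed pool is the highest of all 17 for KIF11, KIF15, KIF20B, KIF23 and KIF4A, and spontaneous pools of KIF11 lie between 18.8 and 34.5 CPM.

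Proliferation markers and spindle partners were followed beside the spindle kinesins in CC. From large to spontaneous pools, 2 of 14 retained proliferation markers were called (1.66% of all transcripts were), both higher in spontaneous pools. The number was 0 to 2 under the alternatives and 0 to 4 with 1 pool left out, being 4 without large replicate 2 or spontaneous replicate 3, 0 without large replicate 6 or spontaneous replicate 2 or 4, and 1 without large replicate 3, 4 or 5 or spontaneous replicate 1. TTK, a checkpoint kinase, averaged 6.88 ± 3.62 CPM in large and 16.5 ± 8.04 CPM in spontaneous pools, a log2 fold change of 1.15 ± 0.37 (limma, adjusted p = 0.567). UBE2C, a ubiquitin-conjugating enzyme of mitotic exit, averaged 39.3 ± 18.5 and 76.4 ± 31.5 CPM, a log2 fold change of 0.99 ± 0.31 (adjusted p = 0.567). The log2 fold change was positive in 14 of 14 proliferation markers (median 0.62), 18 of 20 spindle partners (median 0.46) and 8 of 10 spindle kinesins (median 0.30), beside a median of 0.11 over all transcripts. Markers of other kinds were also mostly positive there, 10 of 12 cumulus and granulosa markers (median 0.39, with CYP19A1 and INHA called), 4 of 4 white blood cell markers (median 0.69) and the 1 retained endothelial marker (0.82), while 2 of 5 theca and stroma markers were (median -0.17). Their part in the result was not tested. With median-of-ratios scaling 7 of 10 spindle kinesins stayed positive (median 0.21), the proliferation markers were all positive still, and none of either list was called. No spindle partner was called by limma, and 5 of 20 had a nominal p under 0.05 (7.07% of all transcripts did).

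From small to spontaneous CC pools the fold change was positive in 14 of 14 proliferation markers (median 0.58), 18 of 20 spindle partners (0.36) and 9 of 10 spindle kinesins (0.29), beside 0.16 over all transcripts, and none was called. Cumulus and granulosa markers were positive in 11 of 12 (median 0.57, none called), white blood cell markers in 3 of 4 (median 0.22) and theca and stroma markers in 3 of 5 (median 0.09), and their part in the result was not tested. Median-of-ratios scaling brought the median of all transcripts to 0.01, with 7 of 10 spindle kinesins and 14 of 14 proliferation markers positive, while in the 3 count tests 5 to 6 spindle kinesins and 8 to 9 proliferation markers were. Without small replicate 3, the proliferation markers CCNA2, MKI67, TOP2A, TTK and UBE2C were called. So were the spindle partners CDCA8, RACGAP1 and CENPE, itself a kinesin, and 269 of all 9677 transcripts were called in that run. Each of the 2 lists had 0 calls in 10 of the 11 runs with 1 pool left out. Summed proliferation markers were 513 ± 369 CPM in small pools, 368 ± 111 CPM in small pools without replicate 3, 434 ± 109 CPM in large and 652 ± 205 CPM in spontaneous pools. The sum over spindle kinesins, in which KIF2A takes the most reads, was 424 ± 68.5, 399 ± 32.0, 497 ± 114 and 463 ± 68.2 CPM in the same order. These comparisons share the spontaneous pools.

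Transport partners of the kinesins gave no calls. In each of the 6 comparisons, 0 of 9 light chains and adaptors retained in oocyte pools, or of 8 in CC pools, passed the threshold in limma, and 0 to 1 had a nominal p under 0.05. The same held for dynein and dynactin, with 0 calls among 24 rows in oocyte and 19 in CC pools and 0 to 1 with a nominal p under 0.05. In the count tests, edgeR's likelihood ratio test and DESeq2 called KLC2 between small and large CC pools, and DESeq2 called KIFAP3 between small and spontaneous CC pools and ACTR1A between small and large oocyte pools.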

How the data were processed

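RNA of 16 oocyte pools and 17 CC pools had been amplified to cDNA and sequenced by the authors, who aligned the reads with Hisat2 to the bovine genome UMD3.1, used FeatureCounts with the Ensembl annotation and deposited CPM per gene. Whether counting used strand is not given in the sources used here, so reads of overlapping and antisense genes cannot be told apart. Amplified reads are not independent molecules. Each pool of 4 complexes was 1 replicate, and no pools of a group agreed within sampling noise (a chi-square of 68.4 or more per degree of freedom among oocyte pools and 14.9 or more among CC pools).

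Columns were matched to pools by name, with 0 left unmatched, and symbols were taken from the deposited tables. Gene lists were matched by symbol within each table, so a gene without a symbol there was left out of its sums and tests. In every pool 100% of values were whole multiples of 1 read (tolerance 0.01), so reads could be recovered. Transcripts reaching 5 CPM in 4 or more oocyte pools (5 or more CC pools) were tested with limma's moderated test with a mean-variance trend on log2(CPM + 1), two-sided, between 2 classifications without covariates. A nominal p of 0.01 or less was called, with Benjamini-Hochberg adjusted p-values beside it. In both comparisons with small oocyte pools a transcript also had to pass without small replicate 3. A fold change on this scale understates the change of low transcripts. Single kinesins were also tested with an exact permutation of mean CPM, and the tests were tried on simulated data. Kinesins were named if they were called, had the smallest p in a comparison, or had 1 of the 5 largest or smallest ratios of oocyte to CC mean, and the others were described by role. KIF3B, between large and spontaneous oocyte pools, was named outside this rule. The members and the gene lists were chosen with earlier results of these data known.

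Alternatives were a pseudocount of 0.1, no filter, median-of-ratios scaling, CPM without mitochondrially encoded genes, all 3 classifications in 1 fit, a block for the replicate number, DESeq2 and edgeR (likelihood ratio and quasi-likelihood) on recovered reads, no requirement on small replicate 3, each pool left out, and, between cell types, reads thinned to 1911600. Models were fitted with limma 3.58.1, DESeq2 1.42.0 and edgeR 4.0.16 in R 4.3.3, and levels and figures were made with pandas 2.3.3 and matplotlib 3.10.9.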

Additional observations from a re-analysis of the deposited data

Results flagged for a closer look

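In 72 groups of pools (the named kinesins and those with the largest and smallest ratios, by cell type and classification), 11 held 1 pool that stood apart from the rest of its group by Dixon's test, where chance gives about 1 in 20. Of these, 3 were small CC replicate 3: KIF11 at 61.7 CPM (the other small pools 5.72 to 22.5), KIF18A at 26.2 CPM (4.85 to 6.63) and KIF20B at 50.2 CPM (22.1 to 25.5). KIF18A also stood apart in large CC replicate 5 at 28.1 CPM (4.627 to 9.502).

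In oocytes, KIF15 stood apart in spontaneous replicate 3 at 289 CPM (373 to 389 in the others), and without it the log2 fold change from small to spontaneous was -0.37 (limma, adjusted p = 0.998), no longer past the threshold. KIF21A stood apart in small replicate 3 at 6.78 CPM (0 to 2.07) and in large replicate 4 at 2.26 CPM (0 to 0.371), pools whose summed cumulus markers were 4455 and 3617 CPM. The other 4 concerned transcripts at or near 0 in the rest of the group: KIF21B in small oocyte replicate 1 at 0.892 CPM, KIF26B in small CC replicate 2 at 0.923 CPM and spontaneous CC replicate 4 at 0.363 CPM, and KIF5A in spontaneous CC replicate 1 at 1.04 CPM.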

How the results depend on the processing

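Between oocyte and CC pools, 19 of 35 kinesins did not overlap, and the number stayed at 19 without mitochondrially encoded genes and with thinned reads, and at 19 to 21 with any pool left out. Without mitochondrially encoded genes 16 were higher in oocyte and 3 in CC pools, and the shares of all transcripts were not counted in that setting. Between small and large oocyte pools all alternatives and left-out pools called 0 kinesins. The other counts were small and moved. From small to spontaneous oocyte pools (1 called in limma) the replicate block and edgeR's likelihood ratio test called 0, and left-out pools gave 0 to 1. From large to spontaneous oocyte pools (1, KIF26B) no filter and the likelihood ratio test called 2 and DESeq2 called 3. Left-out pools gave 0 to 1, with 0 where KIF26B fell below the filter. Between small and large CC pools (0) left-out pools gave 0 to 1, KIF2A without large replicate 2. From small to spontaneous CC pools (1) a pseudocount of 0.1, no filter, all 3 classifications in 1 fit and the replicate block called 0, and left-out pools gave 0 to 2. From large to spontaneous CC pools (1) no filter, median-of-ratios scaling, CPM without mitochondrially encoded genes, all 3 classifications and the 3 count tests called 0, the replicate block called 2 (KIF5C and KIF27), and left-out pools gave 0 to 1. The cause of these moves was not tested.

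Within a cell type, pools of different classifications with the same replicate number were not paired. Of 4 to 6 pairs in a comparison, 0 to 1 had a correlation of deviations above 0.1, and 0 to 1 pool correlated best with its own number. Oocyte and CC pools were matched by origin, but whether their replicate numbers follow that match was not tested. The counts of non-overlapping oocyte and CC pools do not use the match. The log2 fold changes of KIF15, KIF26B, KIF5C, KIF11 and KIF13B, each in the comparison where it was called or had the smallest p, kept their sign under every alternative listed, whereas KIF11 from small to spontaneous CC pools turned from 0.66 to -0.05 in edgeR's likelihood ratio test and -0.07 in DESeq2. The replicate block also ended the calls of KIF15, KIF5C and KIF11. Median-of-ratios scaling lowered the median log2 fold change of all CC transcripts from small to spontaneous from 0.16 to 0.01, and the calls among all transcripts went from 221 higher of 231 to 78 higher of 126. Standard errors of the 26 kinesins retained in CC pools ran from 0.13 to 0.60 on the log2 scale, and those of the 34 in oocyte pools from 0.10 to 0.86.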

Other observations

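Of the 40 kinesins, 6 were below the filter in oocyte pools, among them those that follow. KIF1A had 0 reads in all 16 oocyte pools and at most 0.836 CPM in CC pools. KIFC2 ranged from 0 to 5.12 CPM in oocyte pools and from 0.181 to 5.34 CPM in CC pools. KIF12 had reads in 2 oocyte pools, with a highest value of 4.90 CPM, and KIF26A in 1, at 1.37 CPM. KIF14, KIF18B, KIFC1, KIF9, KIF19, KIFC3, KIF24, KIF5A and KIF26B were tested in oocyte pools and stayed below the filter in CC pools. Their CC means ran from 0.0757 CPM (KIF26B) to 3.78 CPM (KIF24).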
